A study of Mus musculus with 9 samples.

Results

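Expression of 10 established glucocorticoid receptor target genes was examined in the medial prefrontal cortex (mPFC) of control and chronically restrained mice. The genes were Tsc22d3, Sgk1, Klf9, Zbtb16, Mt1, Mt2, Cdkn1a, Ddit4, Errfi1 and Pdk4, picked by symbol as glucocorticoid-induced genes other than Fkbp5, out of 24532 genes listed for every mouse. All 10 were found in each of the 9 mice, and all 10 averaged at least 30 reads per mouse.

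RNA sequencing was performed on 1 library from each of 9 mice, 3 per group, labelled as C57BL/6 and 11 weeks old. The CT mice were wild-type and unrestrained, the WT_ST mice were wild-type and restrained, and the KO_ST mice were Fkbp5-/- and restrained. Per the study's methods, the mice were C57BL/6J males bred from heterozygous parents, restraint lasted 6 hours per day for 3 weeks, and the CT mice also went without food and water during the sessions. The Fkbp5-/- strain came from a repository and was backcrossed to C57BL/6J, and the series holds no unrestrained Fkbp5-/- group, so that in KO_ST against CT the genotype and the restraint cannot be told apart.

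Glucocorticoids released by the adrenal gland during stress bind the glucocorticoid receptor, a cytoplasmic protein held by heat-shock chaperones and co-chaperones. The bound receptor enters the nucleus, where it can act on genes through paired copies of a short DNA motif, the glucocorticoid response element. Fkbp5 encodes FKBP51, a co-chaperone that lowers the receptor's affinity for the hormone and is itself induced by the receptor. The other target genes act on immune signalling, ion transport, transcription, metal binding, growth and fuel use.

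Between 43778471 and 61150128 reads were counted per mouse. FPKM scales the fragments counted on a gene by transcript length and by the depth of the library, so that levels can be set side by side between genes. Fkbp5, the targeted gene, lay at 6.46 to 7.61 FPKM in CT, 9.47 to 10.3 in WT_ST and 3.59 to 4.69 in KO_ST, so that the groups did not overlap and the KO_ST mice were lowest. Markers of cortical excitatory neurons were present in every mouse, with a summed level of 727 to 835 FPKM, and the choroid plexus markers summed to at most 1.17 FPKM. The 5 striatal markers summed to 37.0 to 46.9 FPKM in CT, 45.5 to 59.4 in WT_ST and 39.6 to 47.4 in KO_ST, with 3 called higher in WT_ST against CT (Drd2, Adora2a and Rgs9), 1 called higher in KO_ST against CT (Drd2) and 1 called lower in KO_ST against WT_ST (Rgs9). The 5 microglia markers summed to 92.0 to 114 FPKM in CT, 71.9 to 81.1 in WT_ST and 36.6 to 83.7 in KO_ST, and all 5 were called lower in both stressed groups against CT by the criterion given below. In KO_ST against WT_ST all 5 had log2 fold changes below 0, with a median of -0.40, and 1 was called lower (P2ry12). Endothelial markers summed to 43.5 to 49.0, 36.3 to 43.6 and 32.4 to 41.6 FPKM, with 1 of 6 called lower in each stressed group against CT and 0 between the stressed groups, and oligodendrocyte markers to 457 to 868, 484 to 767 and 519 to 683 FPKM, with 0 of 6 called in any comparison. In bulk tissue, fewer cells of a type and less RNA per cell cannot be told apart. The part of cell-type makeup in the results below was not tested.

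Differences between 2 groups were tested with limma on quantile-normalized log2(FPKM+1) over 14370 genes that averaged at least 30 reads. A gene was called when its fold change exceeded 1.2 and its p before adjustment was below 0.05, and Benjamini-Hochberg adjusted p-values over all genes tested are given. The pseudocount of 1 makes the fold changes of low genes appear smaller than they are. The 3 comparisons share mice: CT and WT_ST enter 2 of them each, and so does KO_ST.

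Promoter sequence was available for 9 of the 10 genes, as 18 windows of the 250 bases before a RefSeq transcription start (build GRCm38.p6). The full palindrome, AGAACA and TGTTCT separated by any 3 bases, was searched on both strands and occurred in 3 of 32851 such windows over all genes (0.00913%). One of these 3 windows belongs to Sgk1, and it is shown because it is the only one of the 18 that holds the full palindrome. It lies at chr10:21993640-21993889 on the plus strand, before one of the 6 Sgk1 starts, and the match, in capitals, begins 189 bases before that start.
Sgk1: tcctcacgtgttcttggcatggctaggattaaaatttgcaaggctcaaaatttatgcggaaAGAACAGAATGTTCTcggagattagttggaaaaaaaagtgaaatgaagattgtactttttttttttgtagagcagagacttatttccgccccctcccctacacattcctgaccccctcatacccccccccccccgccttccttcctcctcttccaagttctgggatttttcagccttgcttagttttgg
The half-site TGTTCT, which also counts each arm of the palindrome, was present in 4 of the 18 windows (22.2%) and in 16.1% of all windows. All 4 were windows of Sgk1 or Tsc22d3, and Sgk1 alone had 6 of the 18 windows, so the share is of windows and not of genes. No full palindrome was found in the windows of Tsc22d3, Klf9, Mt1, Mt2, Cdkn1a, Pdk4, Ddit4 or Errfi1, which says only that these letters are not in those windows. A match is a description of the letters and not a measured binding site.

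Mt1 and Mt2 also answer metal, through the metal response element bound by MTF1. Its core, searched as TGCGCNC or TGCACNC on both strands, was found at least once in 21.4% of all windows and at least 3 times in 1.26%. The Mt2 window at chr8:94172368-94172617 on the plus strand held 3 cores, in capitals, and is shown because no other window of the 10 genes held 3.
Mt2: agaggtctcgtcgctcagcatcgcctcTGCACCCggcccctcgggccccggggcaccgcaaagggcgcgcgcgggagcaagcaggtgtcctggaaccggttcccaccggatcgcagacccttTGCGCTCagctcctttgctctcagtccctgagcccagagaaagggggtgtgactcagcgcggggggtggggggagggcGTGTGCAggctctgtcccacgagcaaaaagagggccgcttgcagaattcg
The Mt1 window, which lies mostly inside the RefSeq span of Mt1 because it was taken before a start within that span, held 1 core.

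The genes covered a wide range of levels. In CT, Mt1 was highest at 173 ± 9.79 FPKM (SD, n = 3), followed by Mt2 at 76.1 ± 8.70 and Klf9 at 42.3 ± 3.17. Sgk1 at 18.1 ± 2.23 and Tsc22d3, between 14.46 and 19.56, came next and overlapped each other. Ddit4 at 12.1 ± 0.624, Cdkn1a at 11.9 ± 0.256, Zbtb16 at 10.5 ± 2.39 and Errfi1 at 8.92 ± 0.427 formed a run in which each neighbour overlapped the next. Pdk4 was lowest at 2.44 ± 0.351 FPKM, and its 333 to 484 reads per mouse were the fewest of the 10.

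Of the 10 genes, none was called in WT_ST against CT, 1 was called higher in KO_ST against WT_ST and 2 were called higher in KO_ST against CT. Over all genes tested the share called in either direction was 2.47%, 2% and 3.56%, and the share called higher was 1.16%, 0.946% and 1.54%. The called genes were Tsc22d3 in both KO_ST comparisons and Sgk1 in KO_ST against CT. None passed an adjusted p of 0.05 with limma or edgeR, as 0.0348%, 0.153% and 0.0626% of all genes did with limma. By the unadjusted p alone the counts were 1, 1 and 4 of 10, against 7.86%, 5.82% and 9.46% of all genes. The FPKM of the groups did not overlap for 1 gene (Klf9), 1 gene (Tsc22d3) and 4 genes (Tsc22d3, Sgk1, Klf9 and Cdkn1a), against 14%, 11.1% and 16.5% of all genes. The median log2 fold change over the 10 genes was 0.05 in WT_ST against CT, 0.13 in KO_ST against WT_ST and 0.11 in KO_ST against CT, beside medians over all genes of 0.0034, -0.0015 and 0.0024. The log2 fold change was above 0 for 6, 7 and 9 of the 10 genes, and for 51.3%, 49.3% and 51% of all genes. Fkbp5, which is not one of the 10, was called higher in WT_ST against CT. Its log2 fold change there was 0.44 (SE 0.0703, 95% interval 0.28 to 0.61, limma adjusted p = 0.267). In the KO_ST mice, where Fkbp5 is the targeted gene, it was called lower, at -1.04 against WT_ST and -0.60 against CT.

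**Figure D1:**
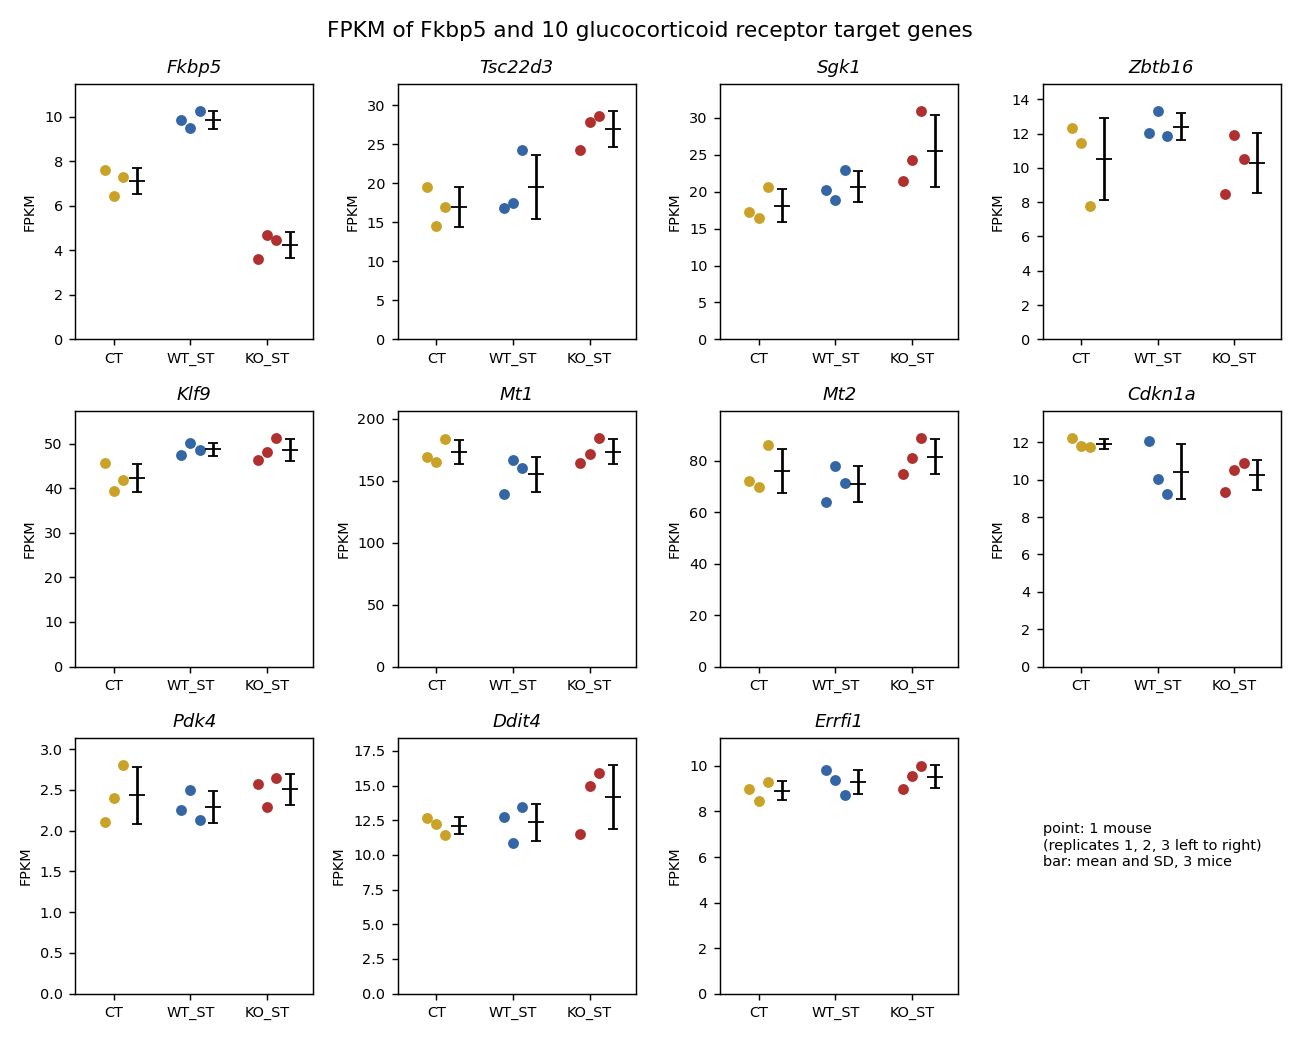
FPKM of Fkbp5 and the 10 glucocorticoid receptor target genes in each mouse (points) with the mean and SD of the 3 mice of each group (bars), on axes that start at 0. For Tsc22d3 the 3 KO_ST mice lie at 24.3 to 28.6 FPKM, above the other 6 mice, and for Klf9 the 3 CT mice lie at 39.5 to 45.7 FPKM, below the other 6.

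Tsc22d3 encodes GILZ, a leucine zipper protein that carries part of the anti-inflammatory action of glucocorticoids (chromosome X, 140539528 to 140600522, minus strand). It was measured at 19.56, 14.46 and 16.97 FPKM in the CT mice, 16.79, 17.45 and 24.20 in WT_ST, and 24.31, 27.87 and 28.62 in KO_ST. Among the wild-type mice WT_ST replicate 3 stood above the other 5, and every KO_ST mouse was above every wild-type mouse, though the nearest pair differed by little. Such a separation of KO_ST above all 6 wild-type mice was seen for 1.18% of the genes tested. The KO_ST mean was 158% of the CT mean. In KO_ST against CT, Tsc22d3 was called higher, with a log2 fold change of 0.65 (SE 0.112, 95% interval 0.39 to 0.92, limma adjusted p = 0.239). Against WT_ST it was called higher by a log2 fold change of 0.47 (SE 0.136, 95% interval 0.15 to 0.79, limma adjusted p = 0.706). For WT_ST against CT its log2 fold change was 0.18 (SE 0.156, 95% interval -0.19 to 0.55, limma adjusted p = 0.783), and it ranged from 0.02 without WT_ST replicate 3 and 0.08 without CT replicate 2 to 0.28 without WT_ST replicate 1 and 0.29 without CT replicate 1. Both calls were kept under every alternative tried. DESeq2 gave an adjusted p of 2.83e-05 for KO_ST against CT and 0.0799 for KO_ST against WT_ST.

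Sgk1 encodes a serum- and glucocorticoid-regulated kinase that acts on ion channels and transporters (chromosome 10, 21882184 to 21999903, plus strand). Its levels were 17.25, 16.44 and 20.64 FPKM in CT, 20.18, 18.93 and 22.98 in WT_ST, and 21.41, 24.23 and 30.92 in KO_ST. KO_ST replicate 3 was the highest of the 9 mice, the KO_ST mice did not overlap CT, and WT_ST overlapped both other groups. The KO_ST mean was 141% of the CT mean. Sgk1 was called higher in KO_ST against CT, with a log2 fold change of 0.47 (SE 0.137, 95% interval 0.15 to 0.80, limma adjusted p = 0.489). That call was kept without KO_ST replicate 3, where the log2 fold change was 0.34 (limma adjusted p = 0.520), and DESeq2 gave an adjusted p of 0.0438 over all mice. In that comparison DESeq2 reached an adjusted p under 0.05 for 113 of the 14370 genes and limma for 9. Against WT_ST the log2 fold change of KO_ST was 0.29 (SE 0.131, 95% interval -0.02 to 0.59, limma adjusted p = 0.869). It ranged from 0.15 without KO_ST replicate 3 to 0.40 without KO_ST replicate 1, and it was called with DESeq2 (0.30), without KO_ST replicate 1 and without WT_ST replicate 3 (0.36). For WT_ST against CT the log2 fold change was 0.19 (SE 0.101, 95% interval -0.05 to 0.43, limma adjusted p = 0.679), and it was called at 0.28 without CT replicate 3 and was 0.11 without WT_ST replicate 3.

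**Figure D2:**
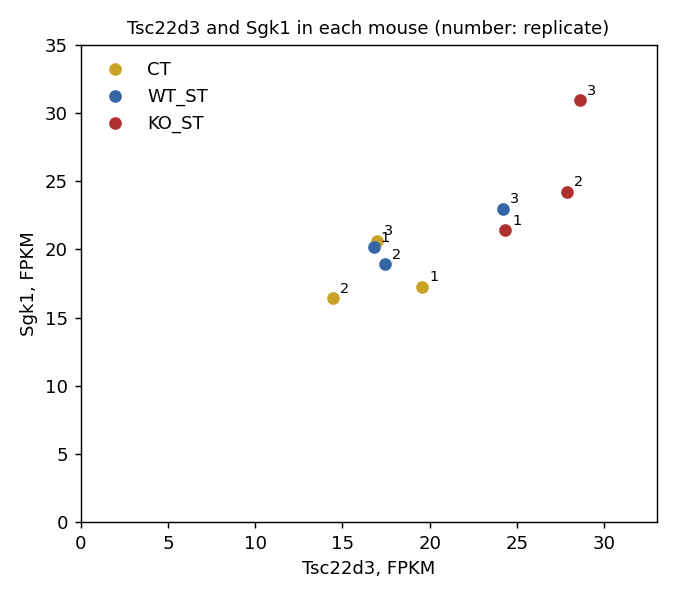
FPKM of Tsc22d3 (x axis) against Sgk1 (y axis) in each of the 9 mice, coloured by group and numbered by replicate. KO_ST replicate 3 is highest for both genes at 28.6 and 30.9 FPKM, and WT_ST replicate 3 lies beside KO_ST replicate 1.

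Of the transcription factors, Klf9, a Krüppel-like factor induced in neurons by glucocorticoids and thyroid hormone, separated the 3 CT mice from all 6 stressed mice (chromosome 19, 23141226 to 23168129, plus strand). It was measured at 45.75, 39.47 and 41.81 FPKM in CT, 47.44, 50.27 and 48.67 in WT_ST, and 46.43, 48.08 and 51.27 in KO_ST. All 6 stressed mice were the higher ones, as for 2.01% of the genes tested, and the stressed groups overlapped each other. The 6 neuron markers summed to 2177 to 2588 FPKM in CT, 2644 to 2887 in WT_ST and 2671 to 2861 in KO_ST, so that this sum also lay higher in all 6 stressed mice. Like Klf9, none of the 6 markers was called in any comparison. All 6 had log2 fold changes above 0 in WT_ST and in KO_ST against CT, with medians of 0.13 and 0.18. Their unadjusted p was below 0.05 for 2 and 3 of the 6, against 7.86% and 9.46% of all genes. The part of the neuron markers in the level of Klf9 was not tested. Both stressed means of Klf9 were 115% of the CT mean, so the difference stayed below the fold change needed for a call. The log2 fold change was 0.21 in WT_ST against CT (SE 0.0607, 95% interval 0.06 to 0.35, limma adjusted p = 0.630). In KO_ST against CT it was 0.20 (SE 0.0667, 95% interval 0.04 to 0.35, limma adjusted p = 0.499). Between the stressed groups it was -0.01, with a 95% interval of -0.13 to 0.11.

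Zbtb16 encodes PLZF, a zinc finger transcription factor (chromosome 9, 48651797 to 48836225). Its levels were 12.31, 11.44 and 7.80 FPKM in CT, 12.02, 13.31 and 11.87 in WT_ST, and 8.45, 11.89 and 10.49 in KO_ST. CT replicate 3 and KO_ST replicate 1 were low and the 3 groups overlapped. The log2 fold change was 0.25 in WT_ST against CT (95% interval -0.12 to 0.62, limma adjusted p = 0.712) and -0.25 in KO_ST against WT_ST (95% interval -0.52 to 0.03, limma adjusted p = 0.869). The first of these was 0.06 without CT replicate 3. The second was -0.12 without KO_ST replicate 1 and was called at -0.35 without KO_ST replicate 2. In KO_ST against CT it was 0.01, with a 95% interval of -0.43 to 0.44, and -0.18 without CT replicate 3.

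The metallothioneins Mt1 and Mt2, small proteins that bind zinc and copper, were highest in level and were not called in any comparison. They lie 5316 bases apart on chromosome 8 (94172618 to 94173567 for Mt2 and 94178883 to 94180327 for Mt1). Because the sequences of Mt1 and Mt2 are closely related, reads could have been assigned to either gene. A transcript on the opposite strand, Gm45774, overlaps Mt2, and whether the counting used strand is not given in the sources used here. Mt1 was measured at 169, 165 and 184 FPKM in CT, 139, 166 and 160 in WT_ST, and 164, 172 and 184 in KO_ST. Mt2 was measured at 72.3, 70.0 and 86.1 FPKM in CT, 63.8, 77.8 and 71.6 in WT_ST, and 75.0, 81.3 and 88.9 in KO_ST. For both genes WT_ST replicate 1 was the lowest mouse and KO_ST replicate 3 the highest, with overlap between all groups. The ratio of Mt1 to Mt2 stayed within 2.07 to 2.36 over the 9 mice. In WT_ST against CT the log2 fold change was -0.16 for Mt1 (95% interval -0.34 to 0.03, limma adjusted p = 0.669) and -0.11 for Mt2 (95% interval -0.34 to 0.13). Without WT_ST replicate 1 these were -0.06 and -0.02, and without CT replicate 3 the Mt2 value was also -0.02. Between the stressed groups it was 0.17 for Mt1 (95% interval -0.03 to 0.36, limma adjusted p = 0.878) and 0.20 for Mt2 (95% interval -0.01 to 0.42, limma adjusted p = 0.868), and without WT_ST replicate 1 these were 0.08 and 0.12. Mt2 was called in that comparison without WT_ST replicate 2, at 0.28, and without KO_ST replicate 1, at 0.27. In KO_ST against CT the values were 0.01 for Mt1 and 0.10 for Mt2.

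The remaining 4 genes restrain growth or fuel use. Cdkn1a encodes p21, an inhibitor of cyclin-dependent kinases, and was the only gene of the 10 with lower levels in every KO_ST mouse than in every CT mouse. It was measured at 12.22, 11.79 and 11.76 FPKM in CT, 12.05, 10.02 and 9.22 in WT_ST, and 9.35, 10.51 and 10.90 in KO_ST. WT_ST replicate 1 lay within the CT range, and the other 5 stressed mice lay below it. The log2 fold change was -0.18 in KO_ST against CT (SE 0.0690, 95% interval -0.34 to -0.01, limma adjusted p = 0.501), below the fold change needed for a call, and -0.11 without KO_ST replicate 1. In WT_ST against CT it was -0.17 (SE 0.0948, 95% interval -0.40 to 0.05, limma adjusted p = 0.680), and it was called at -0.28 without WT_ST replicate 1 and was -0.09 without WT_ST replicate 3. Between the stressed groups the 95% interval was -0.25 to 0.24. Cdkn1a lies 604830 bases from Fkbp5 on chromosome 17 (29090979 to 29100722, plus strand), near the locus altered in the KO_ST mice. Of 29 other genes tested within 1 Mb of Cdkn1a, Fkbp5 left out, 0 were called in WT_ST against CT. In each KO_ST comparison 2 of them were called (6.9%), Fgd2 and Ppil1, both lower in KO_ST, beside 2% of all genes in KO_ST against WT_ST and 3.56% in KO_ST against CT. Fkbp5 itself was called lower in both.

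Ddit4 encodes REDD1, an inhibitor of mTORC1 signalling (chromosome 10, 59949675 to 59951770, minus strand). Its levels were 12.65, 12.26 and 11.43 FPKM in CT, 12.72, 10.86 and 13.45 in WT_ST, and 11.54, 14.98 and 15.92 in KO_ST. KO_ST replicates 2 and 3 were the highest mice, while KO_ST replicate 1 lay within CT. The log2 fold change was 0.22 in KO_ST against CT (SE 0.116, 95% interval -0.05 to 0.50, limma adjusted p = 0.577) and 0.19 in KO_ST against WT_ST (95% interval -0.11 to 0.49). Without KO_ST replicate 1 both were called, at 0.36 and 0.32, and without KO_ST replicate 3 they were 0.14 and 0.11. For WT_ST against CT it was 0.03, with a 95% interval of -0.17 to 0.23.

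Errfi1 encodes MIG6, a feedback inhibitor of the EGF receptor (chromosome 4, 150853796 to 150868889, plus strand), and was measured at 8.92 ± 0.427 FPKM (SD, n = 3) in CT, 9.30 ± 0.541 in WT_ST and 9.53 ± 0.499 in KO_ST. Pdk4, a kinase that inactivates pyruvate dehydrogenase (chromosome 6, 5483351 to 5496278, minus strand), was measured at 2.44 ± 0.351, 2.29 ± 0.193 and 2.51 ± 0.188 FPKM. Neither showed a group apart from another. The Errfi1 log2 fold change was 0.11 in KO_ST against CT (95% interval -0.04 to 0.27) and 0.07 in WT_ST against CT (95% interval -0.09 to 0.23). For Pdk4 the 2 values were 0.06 (95% interval -0.15 to 0.27) and -0.03 (95% interval -0.24 to 0.18). Between the stressed groups the values were 0.04 for Errfi1 (95% interval -0.11 to 0.20) and 0.09 for Pdk4 (95% interval -0.08 to 0.27).

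**Figure D3:**
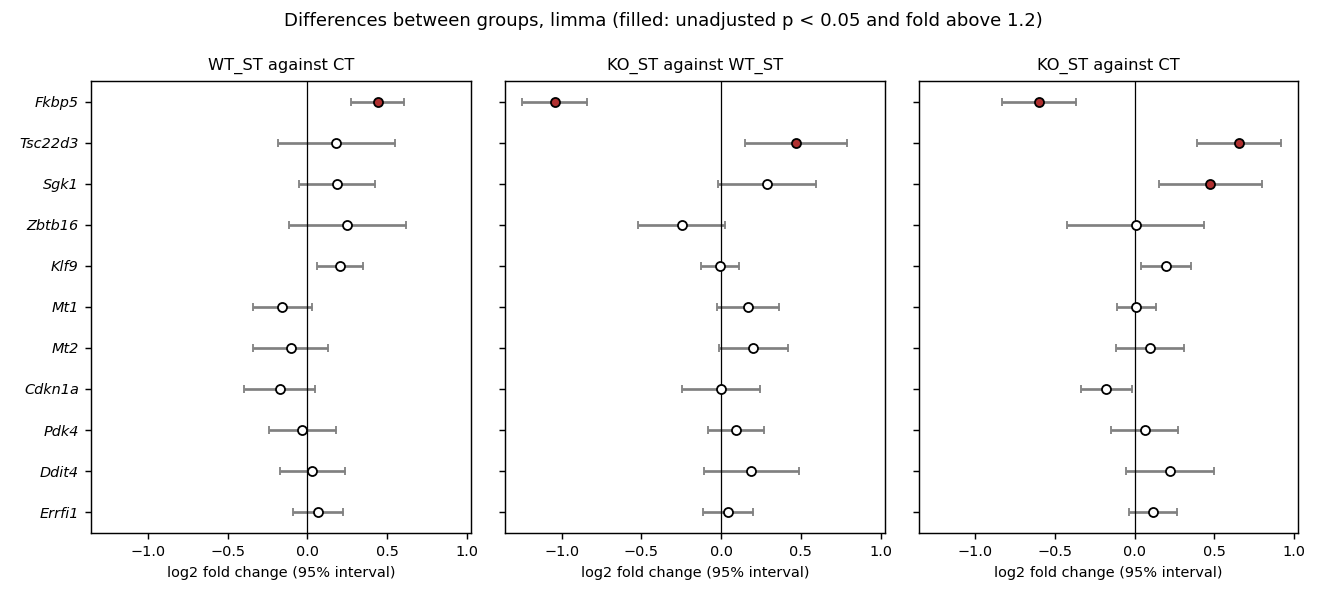
Log2 fold changes with 95% intervals from limma for Fkbp5 and the 10 target genes in WT_ST against CT, KO_ST against WT_ST and KO_ST against CT. Filled points mark calls by the p and fold criterion, which among the 10 genes are Tsc22d3 (0.47 and 0.65) and Sgk1 (0.47 against CT).

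Mouse by mouse, the genes did not move together in every stressed animal. The number of the 10 genes above all 3 CT mice was 3, 3 and 4 in the WT_ST mice and 3, 5 and 7 in the KO_ST mice, against 19.9% to 26.8% of all genes tested in a single stressed mouse. The number below all 3 CT mice was 2 in each WT_ST mouse and 2, 1 and 1 in the KO_ST mice, against 26.7% to 33.1% of all genes. KO_ST replicate 3 was the highest of the 9 mice for 7 of the genes (Tsc22d3, Sgk1, Klf9, Mt1, Mt2, Ddit4 and Errfi1). Of the 3 KO_ST mice it also had the highest summed markers for 9 of 11 cell-type lists, the exceptions being cortical excitatory neurons and red blood cells, and their part in its levels was not tested. The sums in this mouse and in KO_ST replicates 1 and 2 were 83.7 against 36.6 and 54.5 FPKM for microglia, 766 against 665 and 664 for astrocytes, 683 against 519 and 578 for oligodendrocytes, and 2861 against 2808 and 2671 for neurons. CT replicate 3 was likewise the highest of its group for 8 of the 11 lists. Its sums exceeded those of KO_ST replicate 3 for microglia (114 FPKM), astrocytes (796) and oligodendrocytes (868). KO_ST replicate 1 exceeded all CT mice for Tsc22d3, Sgk1 and Klf9 only. CT replicate 2 was the lowest of the 9 mice for 4 genes. The shares of all genes tested that were highest or lowest in a given mouse were not computed. These ranks can therefore not be told apart from a trait of the whole library. Klf9 was the only gene above CT in all 6 stressed mice.

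**Figure D4:**
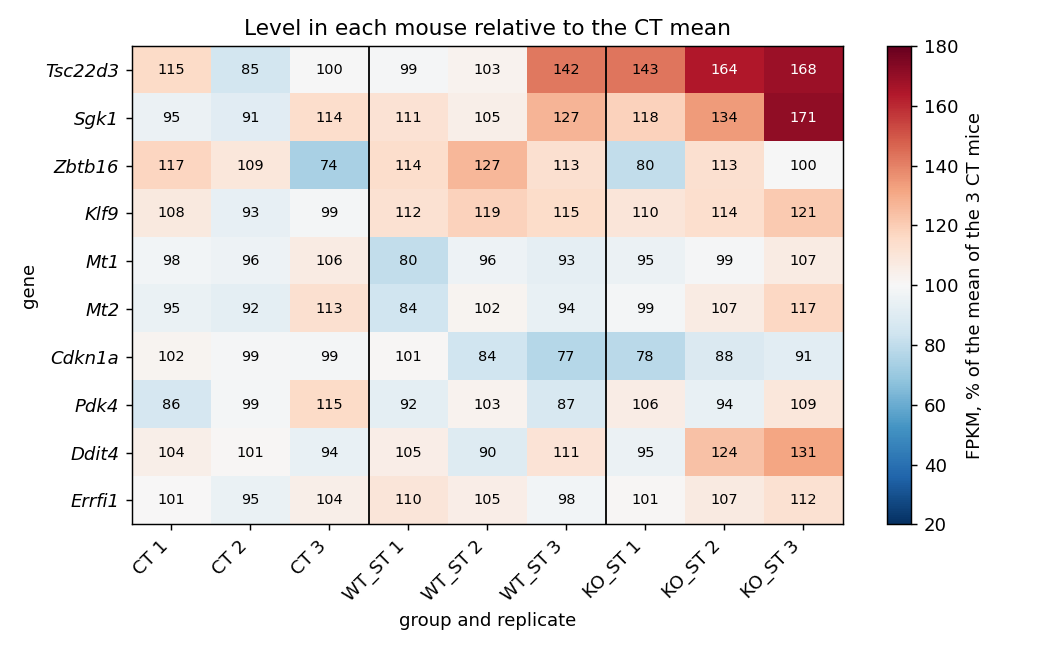
FPKM of each of the 10 genes (rows) in each mouse (columns) as a percentage of the mean of the 3 CT mice, with red above and blue below 100. Tsc22d3 runs from 143 to 168 and Sgk1 from 118 to 171 in the KO_ST mice, while Cdkn1a runs from 78 to 91 there.

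Over the 9 mice, Pearson correlations of quantile-normalized log2(FPKM+1) were computed for the 45 pairs among the 10 genes, as a description only, since the mice share group differences and their libraries share a normalization. The median r was 0.23, with 30 pairs above 0. The same values over pairs of all genes tested were not computed. Mt1 and Mt2 had the highest r (0.87), and it was 0.85 after the group means were removed. Tsc22d3 and Sgk1 followed at 0.84, and 0.55 within groups. Within groups the r of Cdkn1a and Errfi1 came next after that of Mt1 and Mt2, at 0.84, while it was 0.16 over the 9 mice. The lowest r over the 9 mice was -0.68 between Zbtb16 and Pdk4. Among all genes tested outside the 10, the most similar pattern to Tsc22d3 was that of Plcb1 (r = 0.96 over the 9 mice) and to Sgk1 that of 5430405H02Rik (r = 0.93). For the other genes it was Slc35e1 with Zbtb16 (0.92), Pcdha1 with Klf9 (0.95), Polr3d with Mt1 (0.96) and Acsl6 with Mt2 (0.95). It was Marveld1 with Cdkn1a (0.95), Peli2 with Pdk4 (0.94), Zfyve28 with Ddit4 (0.92) and Kcng4 with Errfi1 (0.96). Each of these is the highest r out of 14370 genes over only 9 mice and was picked for its size, and 2.5% of all genes lay above an r of 0.62 to 0.77 with the respective gene.

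A list of 20 other glucocorticoid-induced genes, all of them tested, was examined beside the 10. In WT_ST against CT, 0 were called higher and 2 lower. Between the stressed groups 3 were called higher and 0 lower in KO_ST, and in KO_ST against CT 5 were called higher and 2 lower. Over all genes tested, 1.32%, 1.05% and 2.03% were called lower in the same comparisons. None of the 20 passed an adjusted p of 0.05 with limma over all mice. The median log2 fold change of the list was 0.05, 0.13 and 0.16 in these 3 comparisons.

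Per1, a component of the circadian clock, had levels of 17.09, 17.27 and 17.74 FPKM in CT, 18.12, 18.77 and 19.62 in WT_ST, and 21.53, 24.12 and 20.05 in KO_ST. The 3 groups did not overlap, with CT lowest and KO_ST highest. Of all genes tested, 1.18% had KO_ST above all 6 wild-type mice and 2.01% had all 6 stressed mice above CT. Per1 was called higher in KO_ST against CT by a log2 fold change of 0.33 (SE 0.0722, limma adjusted p = 0.443). It stayed below the fold change needed for a call in KO_ST against WT_ST, at 0.22 (limma adjusted p = 0.812). Also called higher in KO_ST against CT were Plin4, a lipid droplet protein (0.53), Arrdc2, an arrestin domain protein (0.43), the kinase Map3k6 (0.47) and the hypoxia-inducible factor Hif3a (0.30), with limma adjusted p-values of 0.395 to 0.501. Plin4 and Map3k6 were low in level and did not exceed 0.941 and 1.13 FPKM in any mouse. On the FPKM scale itself, without the pseudocount, the KO_ST mean was 314% of the CT mean for Plin4, 214% for Map3k6, 143% for Arrdc2 and 138% for Hif3a. With any 1 mouse left out Plin4 and Arrdc2 remained called. Hif3a was no longer called without CT replicate 1 (0.29), CT replicate 3 (0.23), KO_ST replicate 2 (0.21) or KO_ST replicate 3 (0.30), and Per1 (0.25) and Map3k6 (0.42) were no longer called without KO_ST replicate 2.

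Dusp1, a phosphatase that inactivates MAP kinases and an immediate early gene, was measured at 13.56, 7.19 and 7.52 FPKM in CT, 7.62, 6.10 and 8.17 in WT_ST, and 10.64, 17.96 and 11.59 in KO_ST. KO_ST did not overlap WT_ST, as was seen in either direction for 11.1% of all genes, and CT replicate 1 lay among the KO_ST mice. Dusp1 was called higher in KO_ST against WT_ST by a log2 fold change of 0.78 (SE 0.190, limma adjusted p = 0.642), together with the sulfotransferase Sult1a1 (0.31) and Plin4 (0.33). The Dusp1 call was kept with any 1 mouse left out, at 0.56 to 0.91, while Sult1a1 and Plin4 were each no longer called without WT_ST replicate 1, WT_ST replicate 2, KO_ST replicate 2 or KO_ST replicate 3, at 0.19 to 0.34 and 0.23 to 0.35. The 2 genes called lower in both stressed groups against CT were Fam107a, an actin-associated protein (-0.40 in WT_ST and -0.33 in KO_ST), and Ehd3, a protein of endocytic recycling (-0.38 and -0.30). In WT_ST both calls were kept with any 1 mouse left out, and Ehd3 reached a limma adjusted p of 0.0260 without CT replicate 3 (-0.49). In KO_ST Fam107a was no longer called without CT replicate 1 (-0.35), CT replicate 2 (-0.21), KO_ST replicate 1 (-0.28) or KO_ST replicate 2 (-0.27). Ehd3 was no longer called in KO_ST without CT replicate 1 (-0.25), CT replicate 2 (-0.24), KO_ST replicate 2 (-0.27) or KO_ST replicate 3 (-0.24). Astrocyte markers summed to 729 to 796 FPKM in CT, 653 to 686 in WT_ST and 664 to 766 in KO_ST, with 2 of 7 called lower in WT_ST against CT and 0 in KO_ST against CT, and their part in the level of Fam107a was not tested. Lcn2, an acute-phase protein with the largest negative value of the list (-0.96 in WT_ST against CT, limma adjusted p = 0.679), rested on CT replicate 3 at 4.53 FPKM, with every other mouse at or below 0.802 FPKM. Without KO_ST replicate 2 the count called fell to 2 (Arrdc2 and Plin4) in KO_ST against CT and to 1 (Dusp1) in KO_ST against WT_ST. The count called for WT_ST against CT was 4 without CT replicate 1.

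**Figure D5:**
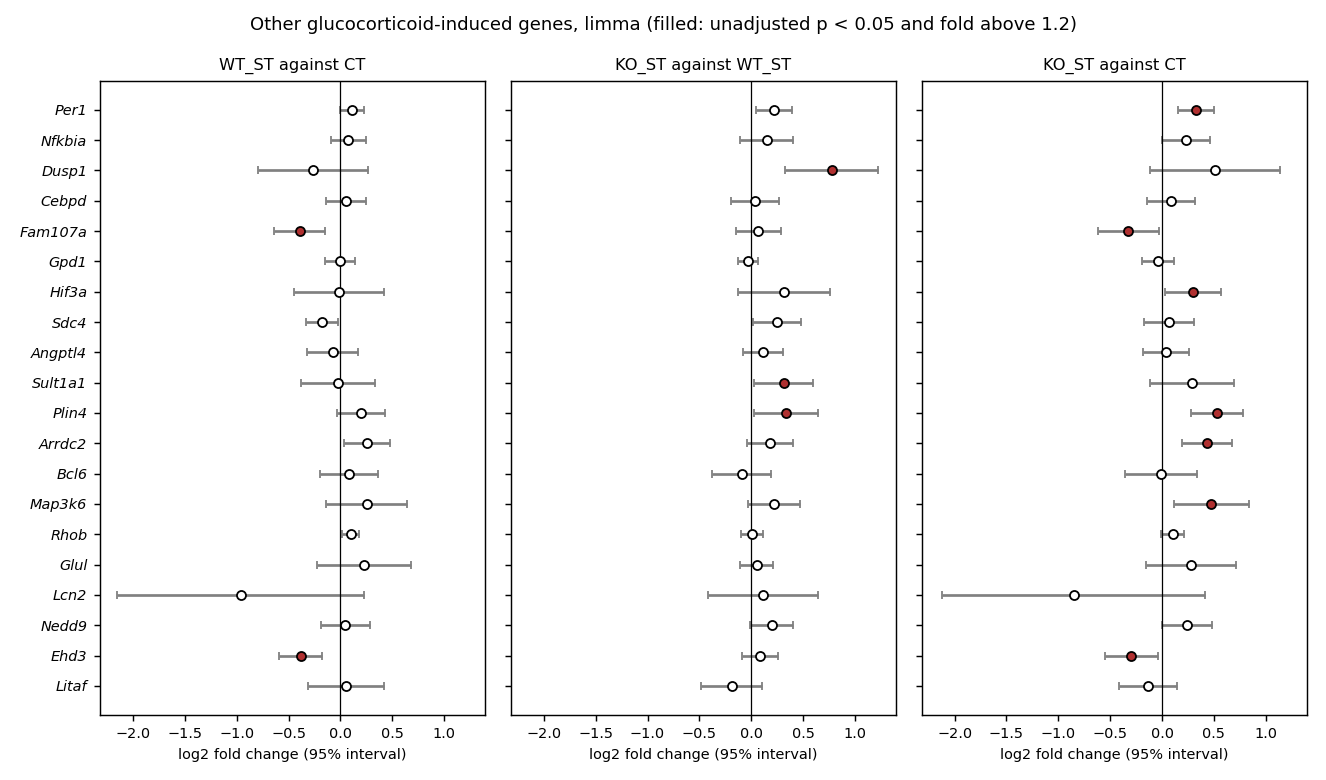
Log2 fold changes with 95% intervals from limma for 20 other glucocorticoid-induced genes in the 3 comparisons, with filled points for calls by the p and fold criterion. In KO_ST against CT 5 genes are called higher and 2 lower, and Lcn2 has the widest interval.

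The receptor itself, Nr3c1, was measured at 15.7, 13.7 and 15.2 FPKM in CT, 14.5, 15.5 and 14.3 in WT_ST, and 15.9, 14.5 and 15.5 in KO_ST. Its groups overlapped, and its difference between the stressed groups had a 95% interval of -0.07 to 0.18 on the log2 scale. Of 8 genes for the receptors and steroid handling, 7 were tested and none was called in any comparison. Hsd11b2, which inactivates corticosterone, was listed at 0 in 8 of 9 mice and was not tested. The largest differences in this list were 0.26 for Srd5a1, a steroid reductase, and -0.19 for Hsd11b1, which regenerates corticosterone, both in WT_ST against CT (limma adjusted p = 0.643 and 0.726).

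Since some of the 10 genes answer other signals too, genes of those pathways were counted. Of 5 further genes of metal and zinc handling, the zinc importer Slc39a10 was called higher in WT_ST against CT (0.28, limma adjusted p = 0.542) and none was called in the other comparisons. Of 6 tested p53 targets besides Cdkn1a, Trp53inp1 was called higher in KO_ST against CT (0.28, limma adjusted p = 0.499) and none elsewhere. Of 6 fasting and PPAR targets besides Pdk4, none was called in any comparison.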

How the data were processed

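The authors aligned 101-bp paired-end reads (HiSeq 4000) to GRCm38 with HISAT2 2.1.0 and Bowtie2 2.3.4.1 and assembled transcripts with StringTie 1.3.4d, per the study's methods and the submitters' processing notes. For each gene they deposited read counts without normalization and FPKM values, which were not quantile normalized. Here, log2(FPKM+1) was quantile normalized over the 9 mice and compared between the mice of 2 groups by the two-sided moderated test of limma 3.58.1 with a trend (R 4.3.3) on genes averaging at least 30 reads. The thresholds of p and fold change follow the study's methods. Alternatives were DESeq2 1.42.0 and edgeR 4.0.16 on the deposited read counts, a pseudocount of 0.1, other filters, no quantile normalization, all 9 mice in 1 fit, the replicate number as a block and each mouse left out. The scripts were tested on simulated data with known fold changes. The 10 genes and the other lists were chosen with earlier results of these data known, so their counts are not independent evidence. The text names the 10 genes, Fkbp5, listed genes that were called or had the 2 largest differences, and the gene most like each of the 10. Nr3c1, Hsd11b2, Fgd2, Ppil1 and the cell-type markers given by name fall outside this rule and were named after their values were seen. Replicates are separate mice. Depth was 43778471 to 61150128 reads per mouse. Promoter sequences and gene positions are from RefSeq (GRCm38.p6), and transcript overlaps from GENCODE. Zbtb16 had no promoter entry.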

Additional observations from a re-analysis of the deposited data

How the results depend on the processing

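The number of the 10 genes called in KO_ST against CT was 2 under every alternative over all mice, and 2 to 3 with a mouse left out. In KO_ST against WT_ST it was 1, and 2 with DESeq2 or with the replicate number as a block. With a mouse left out it was 1 to 4 in KO_ST against WT_ST and 0 to 1 in WT_ST against CT. Tsc22d3 was called in both KO_ST comparisons in each of these settings. Replicate numbers did not pair the mice, since deviations from the group means correlated at -0.0101 on average between mice with the same number and at 0.0049 between the others. With the replicate number as a block, 2 of the 10 genes were called in KO_ST against WT_ST (Tsc22d3 and Sgk1), 2 in KO_ST against CT and 0 in WT_ST against CT. The log2 fold changes that turned sign all had 95% intervals that included 0 over all mice. Klf9 in KO_ST against WT_ST was 0.0050 with edgeR and TMM, 0.0087 with RLE, 0.0072 without a filter and 0.0089 with DESeq2, and -0.047 to 0.030 with a mouse left out. Zbtb16 in KO_ST against CT was -0.019 without quantile normalization, -0.013 with edgeR and TMM, -0.014 with RLE, -0.016 without a filter and -0.013 with DESeq2, and -0.18 to 0.13 with a mouse left out. With a mouse left out, values in WT_ST against CT ran from -0.10 to 0.031 for Pdk4 and from -0.029 to 0.12 for Ddit4. In KO_ST against WT_ST they ran from -0.083 to 0.10 for Cdkn1a and from -0.0020 to 0.085 for Errfi1, and in KO_ST against CT from -0.0067 to 0.13 for Pdk4 and from -0.032 to 0.046 for Mt1. Over all genes, the count called in WT_ST against CT was 355, and 544 with a pseudocount of 0.1, 535 with edgeR, 552 with DESeq2, 700 with edgeR without a filter and 542 without CT replicate 3. In KO_ST against WT_ST it was 287, and 445 with a pseudocount of 0.1, 544 with edgeR without a filter and 477 without KO_ST replicate 3. In KO_ST against CT it was 512, and 843 with edgeR without a filter. The share of calls that were higher moved from 46.8% to 34.1% in WT_ST against CT and from 43.2% to 28.5% in KO_ST against CT when quantile normalization was left out. Among the 20 other glucocorticoid-induced genes, alternatives chosen after seeing the data gave 4 calls with a pseudocount of 0.1 or edgeR and 5 with DESeq2 in WT_ST against CT, against 2. In KO_ST against WT_ST they gave 5 with DESeq2 and 1 without an expression filter, against 3, and in KO_ST against CT 4 without an expression filter, against 7. The cause was not tested. With 3 mice per group, an adjusted p under 0.05 was reached in WT_ST against CT, KO_ST against WT_ST and KO_ST against CT by 5, 22 and 9 of 14370 genes with limma, 72, 76 and 113 with DESeq2, and 0, 4 and 2 with limma and the replicate block.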
